A study of Mus musculus with 18 samples.

Results

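The genes described here are 40 that encode postsynaptic scaffold proteins and synaptic adhesion molecules, taken by gene symbol from a list of names, a rule that uses no measured value. Of the 35006 gene names in each count file, all 40 were found, and all 40 were among the 16183 genes with enough reads to be tested. They comprise 18 genes of the postsynaptic side (MAGUK scaffolds, guanylate kinase-associated proteins, SHANK and Homer scaffolds and subunits of the kinase CaMKII) and 22 adhesion genes (neurexins, neuroligins, LRRTM proteins, contactins and their associated proteins, NCAM, DSCAM, sidekick and SynCAM proteins). Expression was measured by poly(A) RNA-seq of whole retina in 18 libraries from male mice of 24 weeks. The 3 WT libraries came from C57BL/6J mice that drank water and the 6 WT + NACET libraries from mice of that strain that drank NACET. The 4 Akita libraries came from C57BL/6-Ins2Akita/J mice on water, which are heterozygous for a mutation of the insulin gene Ins2 and become diabetic, and the 5 Akita + NACET libraries from such mice given the compound. NACET is the ethyl ester of N-acetyl-l-cysteine, a precursor of cysteine and glutathione that enters cells readily, and was given at 0.33 mg/mL in the drinking water, for a daily intake of 50 mg/kg, from week 4 to week 24. The mutation is carried by all cells of the animal, and the insulin genes are known above all for their expression in the pancreatic beta cell. In such whole-tissue RNA, fewer cells of a type and less RNA per cell cannot be told apart.

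At an excitatory synapse, the MAGUK scaffolds hold glutamate receptors in the postsynaptic membrane, guanylate kinase-associated proteins tie them to SHANK, and SHANK binds Homer and the actin skeleton. Across the cleft, presynaptic neurexins bind neuroligins and LRRTM proteins. In the retina most such contacts lie in the outer plexiform layer, between photoreceptors, bipolar and horizontal cells, and in the inner plexiform layer, between bipolar, amacrine and ganglion cells, where DSCAM and sidekick proteins guide neurites to their sublayers.

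Counts in genes ranged from 11590384 to 18073791 per library, of which the 40 members held between 0.313% and 0.425%. The retinal identity of the tissue was plain from the marker lists, with the summed level of 6 rod genes between 24737 and 51576 CPM (counts relative to the TMM-scaled library size) and muscle genes at no more than 6.395 CPM. Akita replicate 4 stood farther from the libraries of its own group than any other library did, with a median absolute log2 difference of 0.296 (0.108 to 0.235 in the others). It held the lowest level of its group for 21 members and the highest for 12, against 35.1% and 35.8% of all genes. Its levels ran from 0.43 times the mean of the other Akita libraries for Sdk1 to 1.70 times for Homer1. Sdk1 had 12 to 44 reads per Akita library, and Shank3, with 1 to 17, was left aside. The share of uniquely aligned reads outside annotated exons was 16.3% ± 1.24 (SD, n = 3) in WT, 12.7% ± 2.74 (n = 6) in WT + NACET, 11.5% ± 1.83 (n = 4) in Akita and 16.4% ± 2.11 (n = 5) in Akita + NACET. Each Akita library had a lower percentage than each WT and each Akita + NACET library. Lens genes reached 11180 CPM in WT + NACET replicate 5.

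The members covered a wide range of levels. Per kilobase of exon, averaged over the 18 libraries, the neural adhesion molecule Ncam1 was highest with 75.2 CPM, followed by Dlg4 (the scaffold PSD-95) with 70.6 CPM and the SynCAM gene Cadm1 with 52.1 CPM. Over the libraries, Ncam1 (64.0 to 93.8 CPM per kilobase) and Dlg4 (51.0 to 117 CPM per kilobase) overlapped in level. The kinase subunit Camk2d had 31.2 CPM per kilobase and Cadm2 20.1. Among the 4 LRRTM genes the level lay between 1.45 CPM per kilobase for Lrrtm4 and 3.35 for Lrrtm1. Sdk1 with 0.261 CPM per kilobase and Shank3 with 0.0914 were the lowest, and Shank3 rested on 1 to 23 reads per library. The map of the members by library shows Dlg4 high in WT + NACET and in Akita, and most genes of the middle and lower rows low in Akita.

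**Figure D1:**
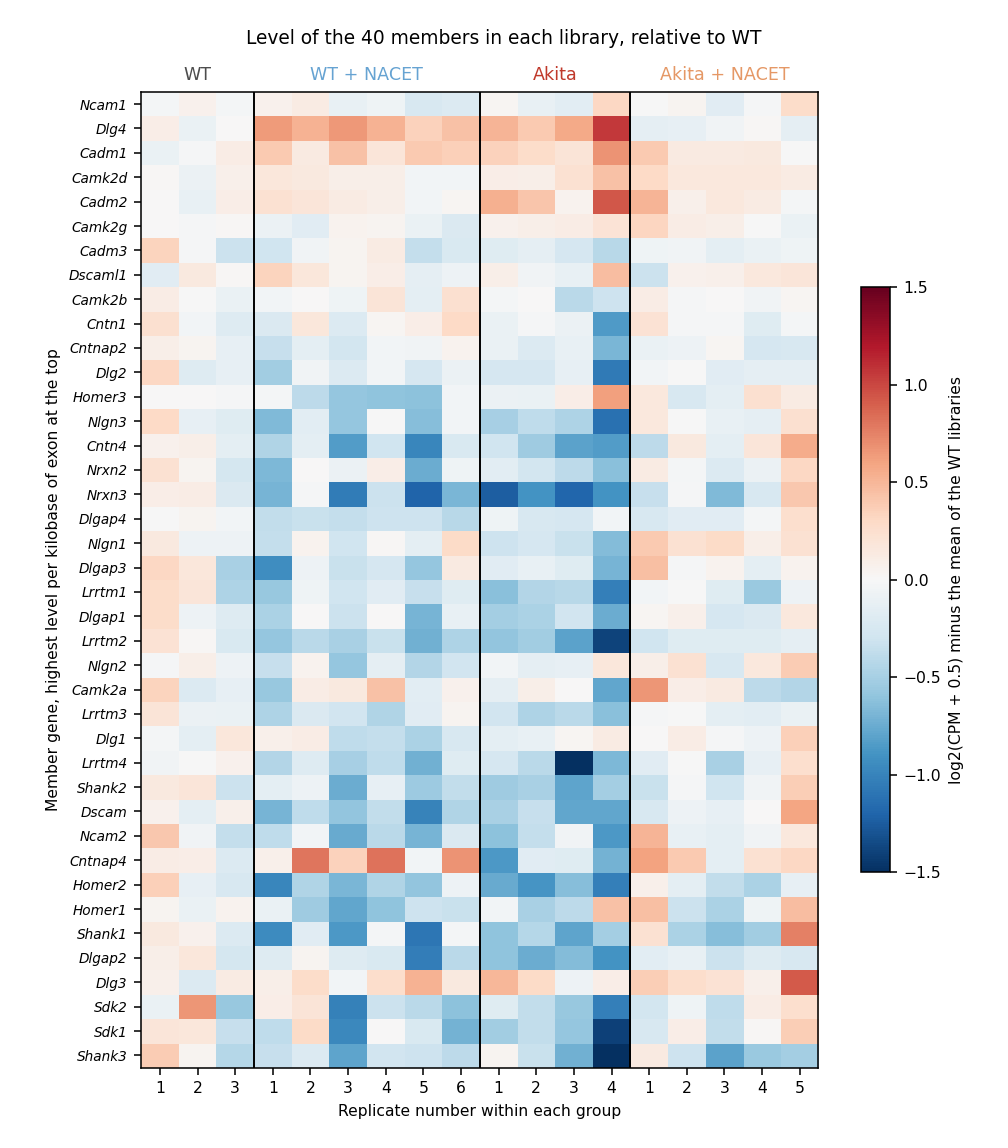
Level of each of the 40 members in each of the 18 libraries, as log2(CPM + 0.5) minus the mean of the 3 WT libraries, with genes ordered by level per kilobase and colours held at the ends of the scale beyond 1.5. Dlg4 is red in all WT + NACET and all Akita libraries, and Nrxn3, Lrrtm2 and Homer2 are blue in all Akita libraries.

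The members are long genes. Their median span from first to last exon was 229 kb, against 20.4 kb over the 15896 tested genes with coordinates, and 27.5% of them span 500 kb or more, against 1.13%. Positions are those of mm9. Dlg4 lies at chr11:69830587-69859034 on the plus strand, Nrxn3 at chr12:89961320-91573375 (plus), Homer2 at chr7:88745367-88851811 (minus), Dscam at chr16:96813686-97392359 (minus), Cntn4 at chr6:105627654-106649304 (plus), Nlgn1 at chr3:25330733-26032656 (minus) and Nlgn3 at chrX:98491178-98521302 (plus). The counts are sums over all exons of a gene, UTRs included. Reads were counted without regard to strand. Of the exon bases of Homer3, 25.4% are shared with Ddx49, and 25.1% of those of Lrrtm4 with Gm4409. Nrxn2 shares 7.27% with Slc22a12, Gm14964 and Gm14967, and Nlgn3 6.80% with Med12, so levels of these members are uncertain. Smaller shares were found for Shank3 (3.05%), Cadm2 (2.61%), Ncam1 (2.51%) and Dlgap4 (0.28%).

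Sequence before the start site was taken for the members in the RefSeq promoter table of GRCm38.p6, which held 28 of the 40 members with 47 start sites. The 250 bases before each start were searched on both strands for 6 motifs, and 4 stretches are printed because Dlg4 was called in the most comparisons, Nrxn3 had the largest interaction and Dlgap1, a partner of PSD-95, holds the same motif as Nrxn3. Capitals mark a match. The CRX homeobox motif TAATCC, bound by a photoreceptor transcription factor, was in 2 of the 47 member promoters (Cntnap2 and Dlg4) and in 6.25% of all 32851 promoters. The core of the antioxidant response element, TGACNNNGC, was in 5 of the 47 (Dlg2, Dlgap1, Homer1, Nrxn3 and Shank3) and in 10.2% of all. At Dlg4 the match is GGATTA, the reverse complement, at -19 to -14 from the most upstream of its 3 starts. The stretch labelled downstream below is that of the next start. The start farthest downstream (chr11:70023732-70023981) holds neither motif and is not printed. At 1 of the 3 Nrxn3 starts the antioxidant core is TGACATAGC at -247 to -239. At 1 of the 2 Dlgap1 starts it matches at -243 to -235 and at -230 to -222, both in reverse. The GC box GGGCGGG was in 12 of the 47 (23.4% of all), the E-box CACGTG in 4 (6.02% of all), the left part of the RE1 element, TTCAGCACC, in 1, that of Nlgn1 (0.301% of all), and the CRE TGACGTCA in 0 (1.55% of all).
Dlg4 upstream start chr11:70016953-70017202 (+): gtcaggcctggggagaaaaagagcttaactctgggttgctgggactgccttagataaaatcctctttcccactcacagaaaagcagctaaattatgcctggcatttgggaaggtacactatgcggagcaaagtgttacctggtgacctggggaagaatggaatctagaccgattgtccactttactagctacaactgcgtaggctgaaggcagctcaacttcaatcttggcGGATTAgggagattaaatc
Dlg4 downstream start chr11:70018355-70018604 (+): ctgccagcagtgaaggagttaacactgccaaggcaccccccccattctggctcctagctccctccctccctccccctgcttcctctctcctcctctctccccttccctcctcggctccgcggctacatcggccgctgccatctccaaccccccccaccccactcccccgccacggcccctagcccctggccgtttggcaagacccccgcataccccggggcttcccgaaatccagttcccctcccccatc
Nrxn3 chr12:88794254-88794503 (+): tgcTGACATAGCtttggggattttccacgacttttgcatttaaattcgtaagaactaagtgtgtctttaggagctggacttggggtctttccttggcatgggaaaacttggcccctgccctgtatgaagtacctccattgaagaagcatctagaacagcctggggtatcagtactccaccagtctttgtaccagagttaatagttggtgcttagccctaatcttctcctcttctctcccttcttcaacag
Dlgap1 chr17:70561497-70561746 (+): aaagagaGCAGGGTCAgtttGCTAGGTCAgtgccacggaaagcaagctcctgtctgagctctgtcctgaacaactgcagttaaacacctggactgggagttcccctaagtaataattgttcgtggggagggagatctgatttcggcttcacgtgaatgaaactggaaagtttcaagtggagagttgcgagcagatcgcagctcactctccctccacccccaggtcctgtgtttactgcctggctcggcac

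Dlg4 encodes PSD-95, the main scaffold of excitatory synapses, which in the retina is also found in photoreceptor terminals. Its level was 279, 244 and 262 CPM in the WT libraries, 373, 343, 387 and 546 CPM in Akita, 237, 240.4, 252, 264 and 238 CPM in Akita + NACET, and between 331 and 411 CPM with a median of 375 in WT + NACET. Every Akita and every WT + NACET library lay above every WT and Akita + NACET library. Of the other MAGUK genes, Dlg2 had 78.5 ± 15.3 CPM in WT, 59.6 ± 15.4 in Akita and 72.6 ± 3.62 in Akita + NACET (SD), with overlap between all groups. Dlg1, Dlg2 and Dlg3 passed the test in no comparison.

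Several genes for proteins next to PSD-95 in the scaffold had the opposite order of groups. Dlgap1, whose protein binds the guanylate kinase domain of PSD-95, was at 74.5, 58.4 and 54.0 CPM in WT, 43.1, 44.3, 50.4 and 36.8 CPM in Akita, 63.0, 64.9, 51.9, 52.9 and 68.7 CPM in Akita + NACET, and 38.0 to 61.9 CPM (median 53.0) in WT + NACET. Dlgap2, of the same family, gave 4.74, 5.04 and 3.61 CPM in WT, 2.74, 2.43, 2.64 and 2.16 CPM in Akita, 3.93, 4.07, 3.45, 3.79 and 3.66 CPM in Akita + NACET, and 1.90 to 4.57 CPM (median 3.74) in WT + NACET. For both genes all Akita libraries lay below all libraries of WT and of Akita + NACET, while WT + NACET overlapped each of these. Shank2, which bridges these proteins to Homer, was at 19.2, 19.7 and 13.8 CPM in WT, 11.9, 12.2, 9.86 and 12.02 CPM in Akita, 13.7, 17.2, 14.0, 16.7 and 22.6 CPM in Akita + NACET, and 10.2 to 16.4 CPM (median 14.5) in WT + NACET. Homer2, which links metabotropic glutamate receptors to SHANK, was at 19.5, 13.7 and 12.6 CPM in WT, 8.70, 7.93, 9.48 and 7.13 CPM in Akita, 15.9, 13.5, 11.6, 10.7 and 13.8 CPM in Akita + NACET, and 7.37 to 14.2 CPM (median 10.3) in WT + NACET. The Akita libraries were again below all WT and all Akita + NACET libraries. The 4 CaMKII genes passed the test in no comparison, and the most abundant of them, Camk2d, was at 460 ± 25.9 CPM in WT and 535 ± 61.9 CPM in Akita.

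Among the adhesion genes, the presynaptic receptor Nrxn3 had the widest spread of group means as a ratio of highest to lowest. It was at 85.9, 86.4 and 68.7 CPM in WT, 33.6, 42.9, 34.7 and 42.5 CPM in Akita, 62.6, 78.7, 50.3, 67.3 and 106 CPM in Akita + NACET, and 34.5 to 78.6 CPM (median 49.2) in WT + NACET. Akita did not overlap WT or Akita + NACET, and the highest value of all, in Akita + NACET replicate 5, came from the library with the largest share of reads outside exons (19.8%). Lrrtm2, a postsynaptic partner of neurexins, was at 20.8, 18.1 and 15.2 CPM in WT, 11.7, 12.3, 10.05 and 6.55 CPM in Akita, 14.4, 15.7, 15.7, 15.7 and 16.3 CPM in Akita + NACET, and 10.7 to 14.1 CPM (median 12.7) in WT + NACET. Lrrtm3, its relative, was at 12.6, 10.2 and 10.1 CPM in WT, 8.84, 7.76, 8.16 and 6.88 CPM in Akita, 10.7, 10.9, 9.83, 9.76 and 10.1 CPM in Akita + NACET, and 7.80 to 11.3 CPM (median 9.08) in WT + NACET. For both LRRTM genes the Akita libraries were below all WT and all Akita + NACET libraries, and Lrrtm2 was also lower in all WT + NACET libraries than in all WT libraries.

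The neuroligins are the postsynaptic receptors of neurexins, Nlgn1 at excitatory, Nlgn2 at inhibitory and Nlgn3 at both kinds of synapse. Nlgn1 was at 19.2, 16.4 and 16.3 CPM in WT, 13.8, 14.4, 13.6 and 10.9 CPM in Akita, 22.7, 20.3, 21.2, 18.3 and 20.3 CPM in Akita + NACET, and 13.3 to 21.2 CPM (median 16.6) in WT + NACET. Nlgn3 was at 81.1, 60.1 and 57.9 CPM in WT, 46.4, 50.4, 47.3 and 30.01 CPM in Akita, 73.2, 65.6, 60.7, 59.8 and 77.7 CPM in Akita + NACET, and 41.4 to 65.1 CPM (median 51.2) in WT + NACET. For both genes every Akita library lay below every WT and every Akita + NACET library. Dscam, which keeps neurites of amacrine and ganglion cells apart, was at 11.99, 10.3 and 12.1 CPM in WT, 7.995, 8.86, 6.47 and 6.47 CPM in Akita, 9.58, 10.8, 10.5, 11.5 and 17.5 CPM in Akita + NACET, and 5.47 to 8.74 CPM (median 7.84) in WT + NACET. The axonal contactin Cntn4 was at 53.1, 54.3 and 45.9 CPM in WT, 41.3, 35.1, 29.1 and 28.3 CPM in Akita, 38.7, 56.3, 45.9, 57.9 and 75.3 CPM in Akita + NACET, and 25.6 to 45.8 CPM (median 39.2) in WT + NACET. Dscam separated both untreated Akita and treated WT mice from the remaining groups, whereas for Cntn4 the lowest Akita + NACET library lay below the highest Akita library.

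The remaining members fell into those with a like order of groups and those with near equal levels. Mean levels of Lrrtm1 were 12.5 ± 3.33 CPM in WT, 10.1 ± 1.24 in WT + NACET, 7.80 ± 1.498 in Akita and 10.8 ± 1.64 in Akita + NACET (SD), and of Lrrtm4 11.0 ± 0.475, 8.28 ± 1.20, 6.63 ± 2.92 and 10.3 ± 1.99 CPM in that order. Ncam2, a cell adhesion molecule of olfactory axons and other neurites, was at 11.2 ± 3.16, 8.21 ± 1.66, 7.94 ± 2.05 and 11.7 ± 2.47 CPM. In each of these 3 genes Akita had the lowest mean and WT + NACET lay between Akita and WT. Cntnap4, of the neurexin-like contactin-associated proteins, departed from them, with 6.06 ± 0.766, 8.64 ± 2.28, 4.29 ± 1.18 and 7.53 ± 1.46 CPM, so that its highest mean was in WT + NACET. Dlgap4 was at 41.9 ± 1.17 CPM in WT and 32.8 ± 0.987 CPM in WT + NACET without overlap, and at 37.7 ± 2.97 and 40.1 ± 5.93 CPM in Akita and Akita + NACET. The SynCAM gene Cadm1, whose product joins cells across the synaptic cleft, had means of 429 ± 32.3, 535 ± 44.6, 558 ± 84.6 and 481 ± 48.9 CPM, with the 2 highest in Akita and WT + NACET and overlap between Akita and Akita + NACET. Cadm2 was at 170.3 ± 12.4, 183 ± 12.7, 243 ± 61.5 and 192 ± 28.8 CPM, and its Akita libraries ranged from 176 to 324 CPM. Little separated the groups for Ncam1 (764, 729.6, 780.4 and 782 CPM), Dscaml1 (118, 124, 128 and 121 CPM) or Cntn1 (129, 132, 109 and 128 CPM). The sidekick genes, which guide amacrine and ganglion cell neurites, were near the bottom of the range, with Sdk1 at 3.49 CPM in WT and 1.98 CPM in Akita and Sdk2 at 7.42 and 4.74 CPM, and neither was called in any comparison. In all, 20 members were called in no comparison, 6 in 1, 7 in 2, 6 in 3 and Dlg4 in 5. The comparisons share libraries, so repeated calls are not independent, and the same tally over all genes is not given here.

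**Figure D2:**
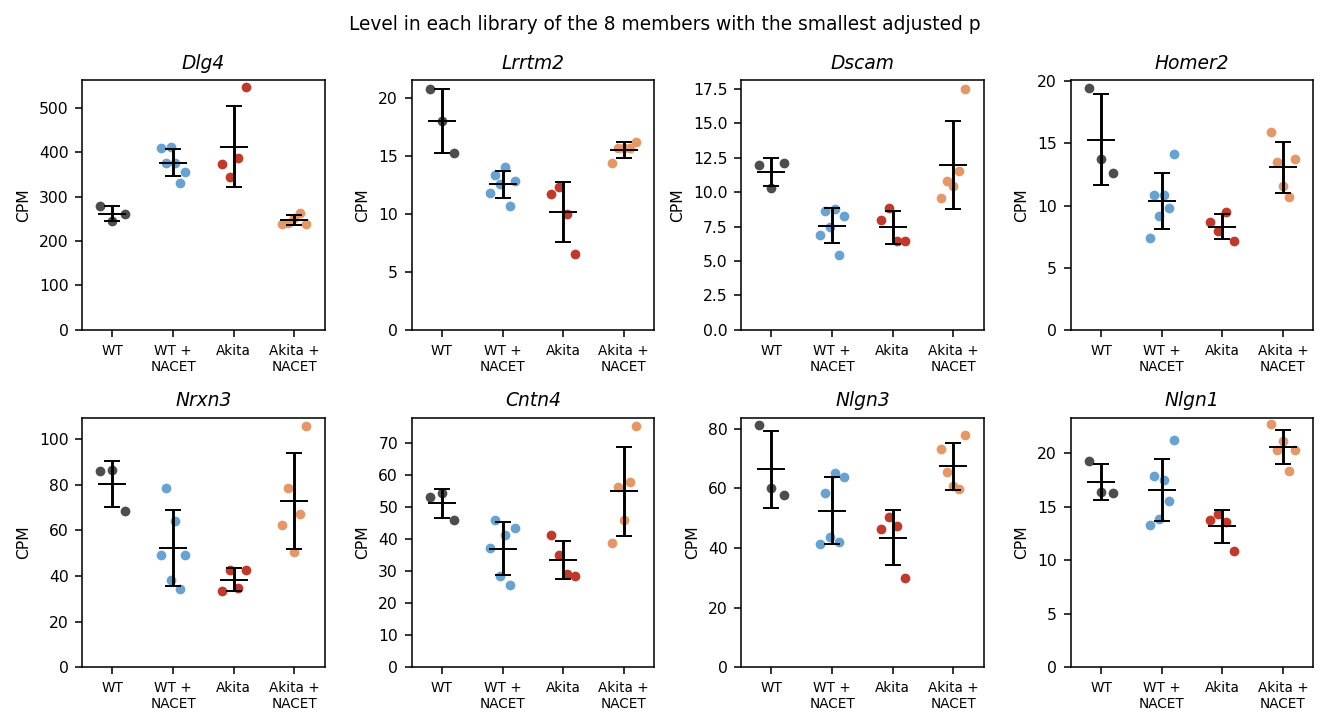
CPM in each library of 8 members called in 2 or more comparisons, those with the smallest adjusted p, by group, with the mean and SD as bars and each axis from 0. Dlg4 is high in WT + NACET and Akita, and the other 7 genes have their lowest group mean in Akita.

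Akita vs WT asked what goes with the diabetic genotype in mice that drank water. Dlg4 and Cadm2 were higher in Akita, and Lrrtm1, Lrrtm2, Lrrtm3, Homer2, Nrxn3, Dlgap2 and Shank2 were lower. At an adjusted p of at most 0.05 in the edgeR fit, which is the threshold for a call throughout, 9 of the 40 members were called (22.5%), 2 higher and 7 lower, against 7.64% of all genes tested (3.96% higher and 3.68% lower). The fold change was negative for 31 members, with a median of -0.38 on the log2 scale against -0.01 over all genes, and it was negative for all 4 members of the LRRTM family, of which 3 were called, and all 3 SHANK genes, of which 1 was. The libraries did not overlap for 19 members, 15 lower and 4 higher in Akita, against 23.2% of all genes in either direction. An unadjusted p below 0.05 was found for 22 members (27.0% of all genes). Dlg4 rose by 0.66 ± 0.13 (log2 fold change ± SE, adjusted p = 0.0151) and Cadm2, a SynCAM adhesion gene, by 0.51 ± 0.15 (adjusted p = 0.0422). Nrxn3 fell by 1.06 ± 0.25 (adjusted p = 0.0245), Homer2 by 0.88 ± 0.19 (adjusted p = 0.0168) and Dlgap2 by 0.83 ± 0.22 (adjusted p = 0.0315). The falls of Lrrtm2 (by 0.82 ± 0.16, adjusted p = 0.0155), Lrrtm1 (by 0.67 ± 0.19, adjusted p = 0.0406) and Shank2 (by 0.61 ± 0.18, adjusted p = 0.0469) were of like size. No neuroligin, contactin, NCAM, DSCAM or sidekick gene was called, with Nlgn3 at -0.61 ± 0.19 (adjusted p = 0.0532) and Ncam1 at 0.03 ± 0.12. The count of 9 became 0 without WT replicate 1 or without WT replicate 2, 5 without Akita replicate 1 and 2 (Dlg4 and Lrrtm2) without Akita replicate 4, with Dlg4 then at 0.49. In a fit that held the percentage outside exons as a term, 0 members and 0 of the 16183 genes were called by edgeR, and 8 members had an unadjusted p below 0.05. That percentage did not overlap between the groups, so it and the genotype cannot be told apart.

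Akita + NACET vs Akita compared treated with untreated diabetic mice, and it shares the Akita libraries with the comparison above. Dlg4 fell by 0.74 ± 0.11 (edgeR adjusted p = 0.0104), while 10 members rose: Nlgn1, Lrrtm2, Nrxn3, Dscam, Homer2, Cntn4, Nlgn3, Cntnap4, Shank2 and Dlgap1. These 11 are 27.5% of the members, against 9.65% of all genes (4.51% higher and 5.14% lower). The median change over the members was 0.33 against 0.00 over all genes, and the change was positive for 33. Higher in all Akita + NACET libraries than in all Akita libraries were 12 members, and 1 was lower, against 6.69% and 7.43% of all genes. Nrxn3 rose by 0.92 ± 0.23 (adjusted p = 0.0250) and Cntn4 by 0.71 ± 0.19 (adjusted p = 0.0300). Dscam rose by 0.68 ± 0.18 (adjusted p = 0.0258), Homer2 by 0.65 ± 0.17 (adjusted p = 0.0291) and Nlgn1 by 0.64 ± 0.13 (adjusted p = 0.0161). Nlgn3 rose by 0.63 ± 0.17 (adjusted p = 0.0300) and Lrrtm2 by 0.61 ± 0.15 (adjusted p = 0.0210). Of the groups by role, 2 of 3 neuroligins and 1 of 4 LRRTM genes were called, and the 4 CaMKII genes lay between -0.04 and 0.24. The count of 11 became 1, Dlg4 alone, without Akita replicate 4, with a fall of Dlg4 by 0.58. It became 5 without Akita replicate 1, 4 without Akita + NACET replicate 2 and 2 without Akita + NACET replicate 5. With the percentage outside exons as a term it was 0, with 6 members at an unadjusted p below 0.05, and 0 of the 16183 genes were called by edgeR. That percentage did not overlap between these groups either, so it and the compound cannot be told apart.

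**Figure D3:**
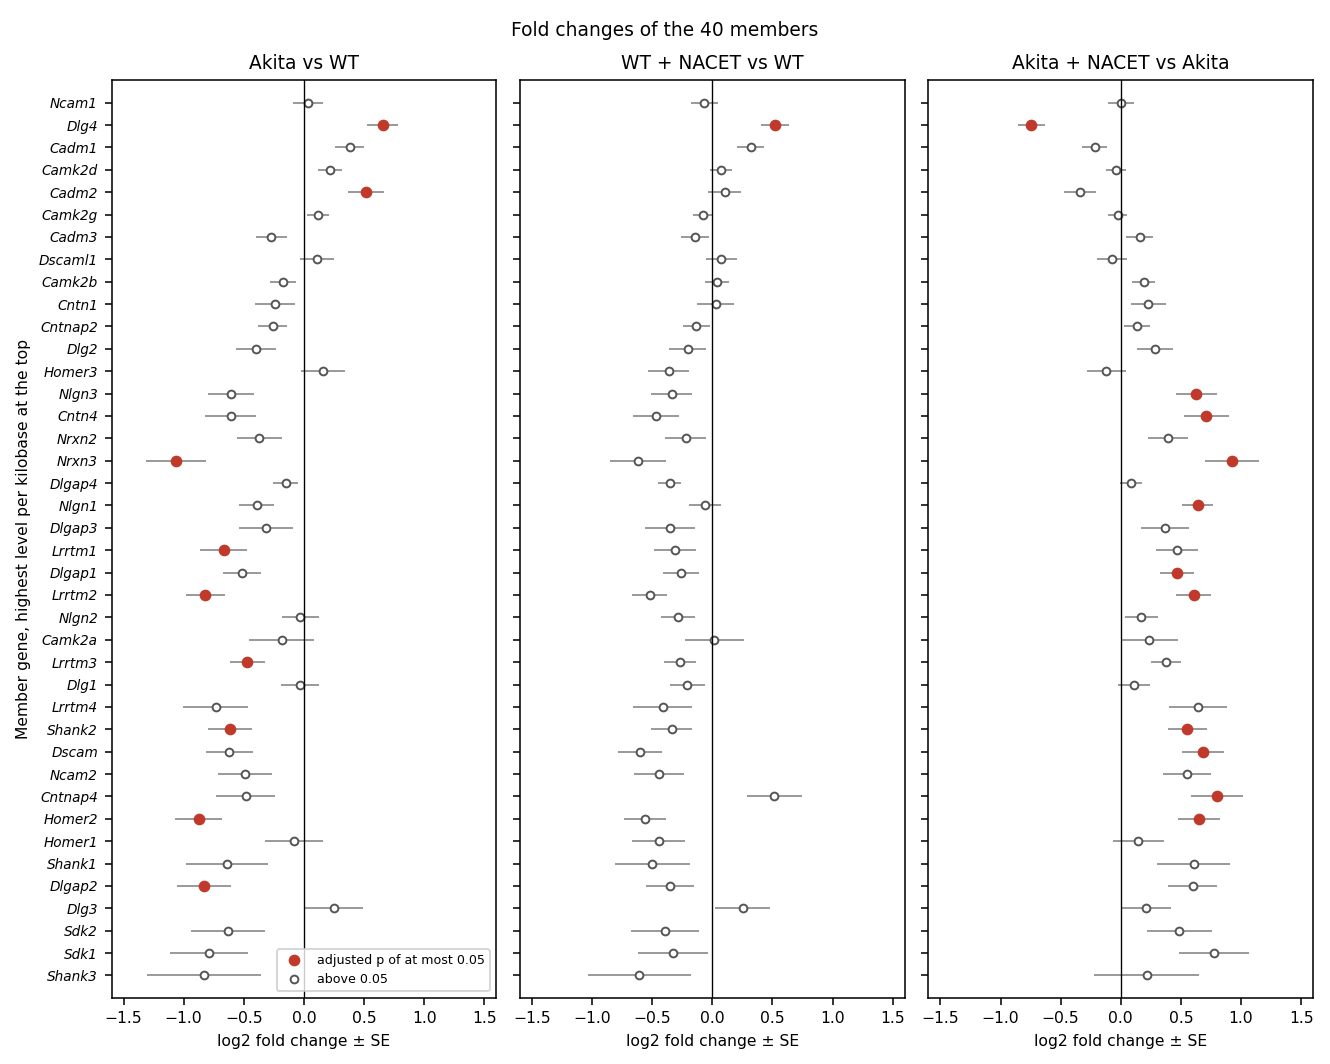
Log2 fold change with its SE for each of the 40 members in 3 comparisons, ordered from the highest level per kilobase at the top, with filled points for an adjusted p of at most 0.05. In Akita vs WT 7 of the 9 filled points lie left of 0, in WT + NACET vs WT the filled point is Dlg4, and in Akita + NACET vs Akita 10 of 11 lie right of 0.

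WT + NACET vs WT compared treated with untreated normoglycemic mice. Dlg4 was the 1 member called (2.5%, against 1.48% of all genes, 0.859% higher and 0.624% lower), with a rise of 0.52 ± 0.12 on the log2 scale (edgeR adjusted p = 0.0289), and all 6 treated libraries lay above all 3 WT libraries. The remaining members moved mostly downward without passing the test. The median over the 40 was -0.28, against -0.01 over all genes, and 30 were negative. With no overlap between the groups, 7 members were lower and 2 higher, against 5.18% and 6.29% of all genes. The call of Dlg4 was lost when any 1 of the WT replicates or WT + NACET replicate 3 was left out, and with the percentage outside exons as a term. In that last fit 61 of the 16183 genes were called by edgeR. The percentage was 14.9 to 17.1 in WT and 9.55 to 16.5 in WT + NACET, and its part in these changes was not tested.

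Akita + NACET vs WT + NACET compared the genotypes among treated mice. Dlg4 was lower in Akita + NACET by 0.61 ± 0.10 (log2, edgeR adjusted p = 0.00108), with no overlap of libraries, which is the reverse of its order in untreated mice. Higher were Dscam by 0.66 ± 0.16 (adjusted p = 0.0108), Cntn4 by 0.57 ± 0.17 (adjusted p = 0.0320), Nlgn2 by 0.43 ± 0.12 (adjusted p = 0.0271) and Dlgap4 by 0.29 ± 0.083 (adjusted p = 0.0269). These 5 members are 12.5% of the list, near the 13.3% of all genes called (6.01% higher and 7.26% lower), and the median over the members was 0.23. The libraries did not overlap for 4 members, 3 higher and 1 lower (8.01% of all genes in either direction, 5.01% lower). The count became 3 without Akita + NACET replicate 2 or without WT + NACET replicate 5, and 2 without Akita + NACET replicate 4, Akita + NACET replicate 5 or WT + NACET replicate 3. With the percentage outside exons as a term 1 member, Dlg4, was among the 194 genes called, at -0.56 (edgeR adjusted p = 0.0217).

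Akita + NACET vs WT asked what difference was left between treated diabetic and untreated normoglycemic mice. No member was called by edgeR, 0 of 40 had an unadjusted p below 0.05 and DESeq2 called 0, against 0.00618% of all genes called and 4.63% with an unadjusted p below 0.05. The smallest p-values belonged to Dlg3, at 0.46 ± 0.24 on the log2 scale, Camk2d, at 0.18 ± 0.094, and Nlgn1, at 0.25 ± 0.14, each with an edgeR adjusted p of 0.9996. Of these, Camk2d was higher in all 5 treated Akita libraries than in all 3 WT libraries, the 1 member without overlap (4.17% of all genes, 2.17% lower and the rest higher). The median over the 40 members was 0.02. A p above the threshold does not show that the groups were alike, since the smallest SE of these changes was 0.087.

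The interaction of genotype with NACET is the NACET effect in Akita minus that in WT, on the log2 scale, and tests the difference of effects itself. Of the 40 members 17 were called (42.5%, against 20.3% of all genes), 15 positive and 2 negative, against 10.1% and 10.2%. The negative ones were Dlg4, at -1.26 ± 0.16 (edgeR adjusted p = 0.000208), and Cadm1, the gene of SynCAM1, at -0.53. The median over the members was 0.60, against 0.00 over all genes, and 25 members had an unadjusted p below 0.05 (35.6% of all genes). Nrxn3 had the largest value, 1.54 ± 0.32 (adjusted p = 0.00608), followed by Dscam with 1.28 ± 0.25 (adjusted p = 0.00329) and Homer2 with 1.21 ± 0.25 (adjusted p = 0.00410). Cntn4 had 1.18 ± 0.27 (adjusted p = 0.00799), Lrrtm2 1.13 ± 0.21 (adjusted p = 0.00260), Nlgn3 0.97 ± 0.24 (adjusted p = 0.0114) and Nlgn1 0.70 ± 0.18 (adjusted p = 0.0138). By role, all 4 LRRTM genes, 3 of 4 guanylate kinase-associated proteins (Dlgap1, Dlgap2 and Dlgap4) and 2 of 3 neuroligins were called, against 0 of 4 CaMKII genes, 0 of 2 sidekick genes and 0 of 2 contactin-associated genes. The count of 17 became 8 without WT replicate 1 and 15 without Akita replicate 4, with Dlg4 then at -1.10. With the percentage outside exons as a term, 0 members and 17 of the 16183 genes were called by edgeR. Dlg4 was then at -1.15 (edgeR adjusted p = 0.0566). That percentage did not overlap between Akita and Akita + NACET, so its part in the interaction cannot be told apart from that of the compound.

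The changes described above that were called were those of members with lower levels, apart from Dlg4, Cadm1 and Cadm2. With the members divided after their values were seen into the 10 highest per kilobase and the other 30, the median change in Akita vs WT was 0.11 for the higher and -0.50 for the lower members. The effect of NACET in Akita had medians of -0.03 and 0.48, and the interaction of -0.03 and 0.75. Spearman's rank correlation between level per kilobase and change over the 40 members was 0.62 in Akita vs WT and -0.62 in the interaction, against 0.37 and -0.35 over the 15896 genes with coordinates, values that describe genes sharing the same libraries. The span of a gene was less related to its change, with rank correlations of -0.21 and 0.18 over the members.

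**Figure D4:**
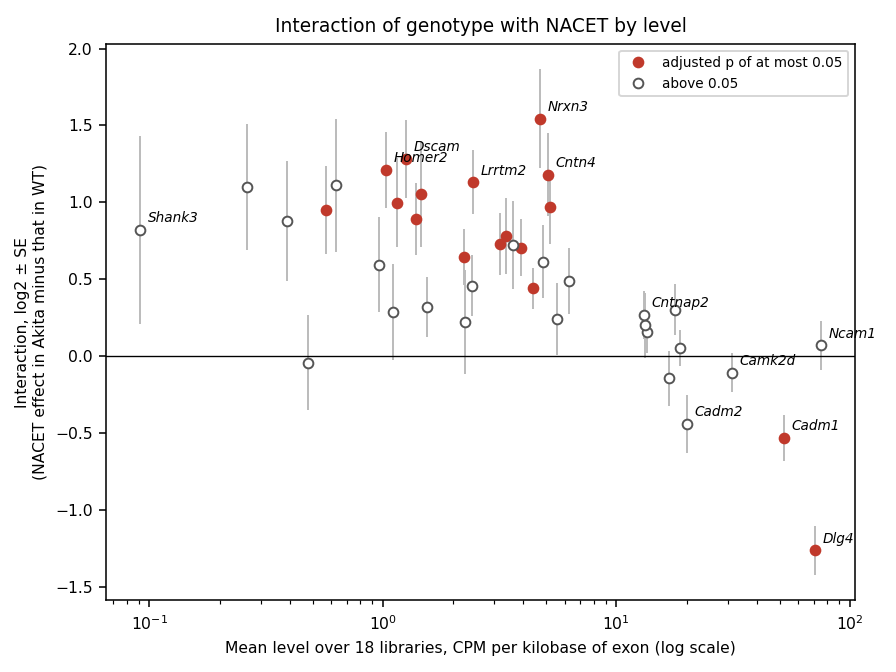
Interaction of genotype with NACET (log2, with SE) against the mean level per kilobase of exon over 18 libraries on a log axis, 1 point per member, filled where the adjusted p is at most 0.05. Both filled points below 0, Dlg4 and Cadm1, have a level above 50 CPM per kilobase, and the 15 above 0 lie below 6 CPM per kilobase.

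Other synaptic genes gave a like picture. A list of 82 further genes for scaffolds and adhesion molecules outside the 40, of which 81 were tested, held 20 called in Akita vs WT (24.7%, 18 of them lower, with a median over the list of -0.45). For NACET in Akita it held 30 called genes (37.0%, 29 higher, with a median of 0.43), and for NACET in WT 2 (2.47%). Between treated genotypes 13 were called (16.0%), between Akita + NACET and WT 0 by edgeR, and in the interaction 41 (50.6%), 40 of them positive. Over all genes the shares called were 7.64%, 9.65%, 1.48%, 13.3%, 0.00618% and 20.3% in that order. The share of the list between treated genotypes was thus near that of all genes. The 20 became 0 without WT replicate 1 or 2 and 5 without Akita replicate 4, and the 30 became 0 without Akita replicate 4 and 3 without Akita + NACET replicate 5. In Akita vs WT the smallest p-values of that list belonged to Slitrk2 (-0.99), Cntn5 (-1.04) and Odz2, the teneurin gene Tenm2 (-1.03), and for NACET in Akita to Odz2 (1.03), Slitrk1 (0.74) and Slitrk5 (0.87). Named after their values were seen, the genes called against the more frequent direction were Lin7c, a small scaffold of cell junctions, at 0.56 in Akita vs WT, -0.40 for NACET in Akita and -0.71 in the interaction, Psd at 0.47 in Akita vs WT and Lin7b at -0.79 in Akita + NACET vs WT + NACET.

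Markers of several cell types moved with these results. Of all genes, 7.64% were called in Akita vs WT, 9.65% for NACET in Akita, 13.3% between treated genotypes and 20.3% in the interaction. The 6 rod genes summed to 27281 to 38118 CPM in WT, 33955 to 45908 CPM in WT + NACET, 35793 to 51576 CPM in Akita and 24737 to 33126 CPM in Akita + NACET. Both Akita and WT + NACET lay above Akita + NACET without overlap and overlapped WT, and the highest sum, like the highest Dlg4 level, was in Akita replicate 4. Of them 2 were called higher in Akita vs WT (Nrl at 0.55 and Cnga1 at 0.47), 4 lower with NACET in Akita and all 6 negative in the interaction. Cone genes were not called in Akita vs WT (0 of 7 by edgeR), and 4 of 7 were lower with NACET in Akita. The 8 amacrine genes summed to 424 to 567 CPM in WT, 332 to 489 CPM in WT + NACET, 270 to 364 CPM in Akita and 400.3 to 505 CPM in Akita + NACET, with 5 called lower in Akita vs WT (among them Gad1 at -0.67 and Gad2 at -0.55) and 3 higher with NACET in Akita. Of the 8 bipolar genes 0 were called in Akita vs WT and 1, Grik1, with NACET in Akita, and none of the 8 ganglion cell genes was called by edgeR in any comparison. The horizontal cell, Müller glia, astrocyte, endothelial and pericyte lists had at most 1 called gene in a comparison. Among them, Gfap (of 4 astrocyte genes) was at -1.65 between treated genotypes. Cldn5 (of 5 endothelial genes, at most 47 reads per library) was at -2.11 in Akita vs WT and 2.14 with NACET in Akita. Astrocyte genes summed to 152 to 320 CPM in WT + NACET, against 58.0 to 115 in WT, 48.9 to 150 in Akita and 45.0 to 124 in Akita + NACET. Of 5 red blood cell genes 2 were called higher with NACET in Akita, with sums of 35.7 to 97.2 CPM in Akita + NACET against 11.9 to 33.9 CPM in Akita, and 3 were higher than in WT + NACET. Of 5 microglia genes 3 were called lower in Akita + NACET than in WT + NACET, with sums of 16.7 to 27.8 against 30.8 to 41.7 CPM. Pigment epithelium genes had median sums of 141 CPM in WT, 629 CPM in WT + NACET, 61.02 CPM in Akita and 456 CPM in Akita + NACET. The ganglion cell sum was 624 CPM in Akita replicate 4 against 1310 to 1517 CPM in the other Akita libraries. No gene of these lists was at 0 in all 18 libraries. The part of these marker levels in the results on the 40 members was not tested.

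**Figure D5:**
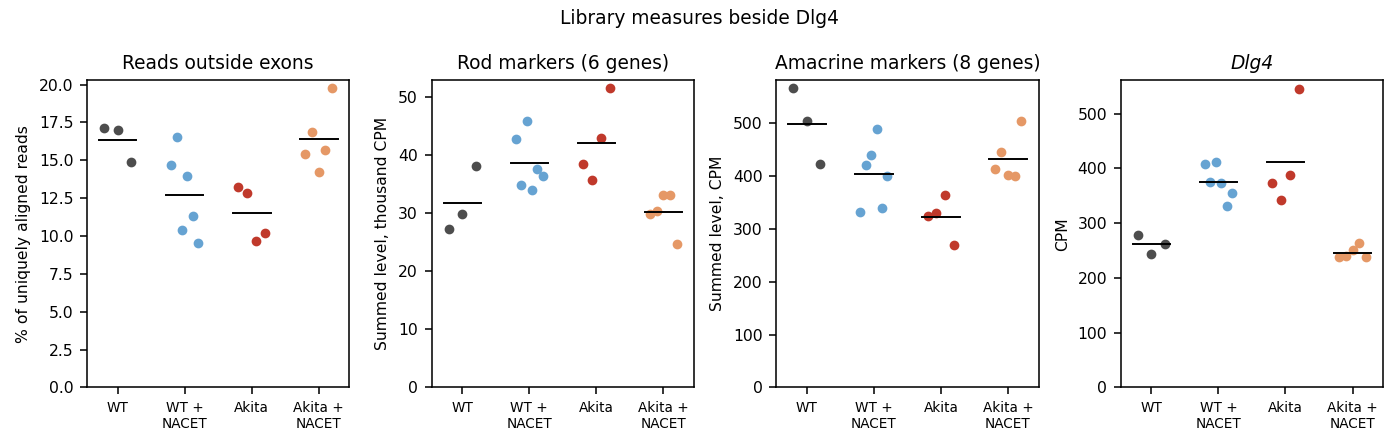
Percent of uniquely aligned reads outside exons, summed CPM of 6 rod and of 8 amacrine marker genes, and Dlg4 in CPM, each point a library and each line the group mean, with axes from 0. Reads outside exons and amacrine markers have their lowest mean in Akita, and rod markers and Dlg4 their highest.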

How the data were processed

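Poly(A) RNA of 18 retina samples was sequenced by the authors as single-end reads (TruSeq RNA v2, NextSeq). They aligned reads to mm9 with TopHat2 2.1.0 over Bowtie and counted them per gene with HTSeq-count 0.11.2 (exon features, no strand, intersection-nonempty, any alignment quality), so the deposited values are raw counts. The labels do not say whether retinas were pooled, and p-values measure the spread between the labelled samples. As in the study, 206 ribosomal RNA genes (0.977% of counts) were removed. A row without a gene name (0.0054%) stayed out.

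Genes were filtered by edgeR 4.0.16 (R 4.3.3, filterByExpr with a minimum count of 10 and a total of 15), and 16183 were fitted with TMM scaling and the robust quasi-likelihood F test over 4 groups, with Benjamini-Hochberg adjustment over all genes. The study used DESeq2, which was run here as an alternative (version 1.42.0). SE is the absolute log2 fold change divided by the root of F. Levels between genes are CPM per kilobase of exon. The biological coefficient of variation was 0.186. On simulated counts for Akita vs WT (15989 genes), 43% of 100 genes changed 1.5-fold and 84% of 100 changed 2-fold were recovered, with 8 false calls.

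The rule for the members uses no measured value, but members, gene lists and tests were chosen with earlier results of these data known. In each comparison up to 8 called members with the smallest adjusted p are given with their statistics (3 where none was called), and up to 12 members called in 2 or more comparisons with the value of every library (lowest, median and highest in WT + NACET, which has more than 5). Other lists are markers of rods, cones, bipolar, amacrine, ganglion and horizontal cells, Müller glia, astrocytes, microglia, endothelium, pericytes, pigment epithelium, red blood cells, lens and muscle, and 82 further synaptic genes, with at most 3 named per comparison. One marker gene is not reported here and was left out of its list. Alternatives changed scaling, test, filters, samples, the replicate block and ribosomal genes, or added the percentage of reads outside exons. Promoter sequences are from RefSeq (GRCm38.p6) and were joined by gene symbol only.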

Additional observations from a re-analysis of the deposited data

Results flagged for a closer look

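By the test of the interaction, the difference between treated and untreated libraries was unlike in Akita and WT for 17 of the 40 members (edgeR, adjusted p of at most 0.05, 20.3% of all genes). With the percentage of reads outside exons as a term, 0 members and 17 of the 16183 genes were called, so that percentage and the compound cannot be told apart here. Values are the log2 effect in Akita minus that in WT. Among scaffold genes they were -1.26 for Dlg4, 0.73 for Dlgap1, 0.95 for Dlgap2, 0.44 for Dlgap4, 0.89 for Shank2 and 1.21 for Homer2. Among neurexins and their partners they were 1.54 for Nrxn3, 0.70 for Nlgn1, 0.97 for Nlgn3, 0.78 for Lrrtm1, 1.13 for Lrrtm2, 0.64 for Lrrtm3 and 1.05 for Lrrtm4. The other adhesion genes were Cntn4 with 1.18, Ncam2 with 0.998, Dscam with 1.28 and Cadm1 with -0.53.

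Within groups of 4 to 6 libraries, 1 library stood apart from the others by Dixon's criterion in 7 of 120 combinations of member and group, and chance flags about 1 in 20. In Akita replicate 4, Dlgap3 was at 10.8 CPM, below the next library at 15.6, and Cntn1 at 70.6 CPM, below 119. In Akita replicate 3, Shank2 was at 9.86 CPM, below 11.9. In Akita + NACET replicate 5, Dlg3 was at 4.77 CPM, above 3.10, and Dscam at 17.5 CPM, above 11.5. In Akita + NACET replicate 1, Camk2d was at 567 CPM, above 514, and Dscaml1 at 94.3 CPM, below 123.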

How the results depend on the processing

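The counts of members called were 9 in Akita vs WT, 11 for NACET in Akita, 1 for NACET in WT, 5 between treated genotypes, 0 between Akita + NACET and WT and 17 in the interaction. Leaving out each library in turn gave 0 to 12, 1 to 11, 0 to 1, 2 to 7, 0 to 0 and 8 to 21. With the percentage of reads outside exons as a term they were 0, 0, 0, 1, 0 and 0. Of all 16183 genes that fit called 0, 0, 61, 194, 1 and 17 in the same order. For the other alternatives the shares of all genes called are given neither here nor below. A fit of only the 2 groups compared gave 1 in Akita vs WT and 2 for NACET in WT. DESeq2 gave 14 in Akita vs WT and 4 for NACET in WT, and a minimum mean count of 50 gave 2 for NACET in WT. The cause of these shifts was not tested. The other alternatives for these counts (DESeq2 size factors, no filter, ribosomal genes kept) stayed within 1.5 times, and no called member changed sign in any alternative run. Members not called could, and Ncam1 in Akita vs WT (0.03) did so in 2 of 15 alternatives.

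Replicate numbers in the labels are shared between groups, and the labels do not say what a shared number means. Of 22 same-numbered pairs of libraries, 4 deviated together with a correlation above 0.1 (range -0.33 to 0.34). The numbers were not treated as pairs in the main fit. With the replicate block the counts were 5 in Akita vs WT, 2 for NACET in Akita, 2 for NACET in WT, 5 between treated genotypes, 0 between Akita + NACET and WT and 15 in the interaction.

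Depth limits Shank3 most, with 1 to 23 reads per library.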
